A study of Mus musculus with 8 samples.

Results

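The loci of 7 genes that serve as mesenchymal markers or matrix genes were examined for open chromatin in mouse mammary gland epithelial cells. They were *Vim*, *Acta2*, *Tagln*, *Tpm1*, *Cnn1*, *Fn1* and *Tnc*, chosen by name, and each locus was the annotated gene span with 20 kb on each side. FAIRE-seq (sequencing after formaldehyde-assisted isolation of regulatory elements) enriches DNA free of crosslinked protein, and a FAIRE peak is a stretch where such DNA is over-represented. The peaks of 8 libraries, 129466 in all, were merged into 37230 regions, of which 27 lay in the 7 loci. These 27 regions held 90 of the peaks.

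The libraries came from EpH4 cells, a mouse mammary gland epithelial line grown in 10% fetal bovine serum, and from EpRas cells, their derivative that expresses active H-Ras, grown in 4% serum. Each line was left untreated or was given TGF-β3 at 1 ng/ml for 8 days, which gave 4 groups with 2 libraries each. Only 1 line stood for each Ras state, so Ras, the line and the serum level cannot be told apart. List lengths for replicates 1 and 2 were 12462 and 13092 peaks (untreated EpH4), 17927 and 10821 (EpH4 with TGF-β), 17210 and 13784 (untreated EpRas), and 27337 and 16833 (EpRas with TGF-β). The reads behind each list were unknown, so a site without a peak was not called at that depth, which does not show that it was closed. A site open in fewer cells and a site less open in each cell cannot be told apart in bulk DNA. As a check of the cell type, 5 of 6 epithelial genes (*Cdh1*, *Krt8*, *Krt18*, *Cldn4* and *Esrp1*, but not *Epcam*) had a promoter region in at least 1 library. The same was true of 1 of 5 mesenchymal genes (*Pdgfra*), 1 of 3 leukocyte genes (*Cd68*) and 0 of 3 endothelial genes. Of all protein-coding genes, 57.6% had a promoter region in no library, so these small counts do not set the leukocyte genes apart. Each of the 3 leukocyte and 3 endothelial loci held a peak within 20 kb.

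Epithelial-mesenchymal transition (EMT) is a program in which epithelial cells loosen their junctions, rebuild the cytoskeleton and secrete a different matrix, and TGF-β is its best known inducer. The intermediate filament protein vimentin and the actin-binding proteins of contractile cells mark the cytoskeletal side of this change, while fibronectin and tenascin-C mark the matrix side. In contractile cells, many of the actin-binding genes are controlled by serum response factor, which binds the CArG box.

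No locus of the 7 separated the lines or the treatments by its number of peaks. Over the 15756 protein-coding loci with a peak, all EpRas libraries held more peaks than all EpH4 libraries at 4.27% and fewer at 0.552%, while all TGF-β-treated libraries held more than all untreated ones at 0.394% and fewer at 0.0444%. The count among the 7 loci was 0 in each of these 4 directions. *Tpm1* and *Cnn1* were peak-rich, with a higher mean number of peaks per library than 93.6% and 94.3% of protein-coding loci. *Fn1* and *Tnc* stood above 77.1% and 69.1% of loci, *Vim* above 57.1%, *Acta2* above 38.7% and *Tagln* above 28.2%. These ranks are of raw peak numbers and do not allow for locus length, which ran from 46.4 kb for *Tagln* to 127 kb for *Tnc*. After Benjamini-Hochberg adjustment over all loci, the exact permutation test called 0 loci for the lines (759 at an unadjusted p under 0.05) and 0 for TGF-β (69). The 70 assignments of 4 against 4 libraries allow no p under 0.0286. Only loci without overlap reach it, so the 759 and 69 are the loci of the 4 shares above. With this floor, adjusted values over so many loci or regions can hardly pass, and 0 calls say little.

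**Figure D1:**
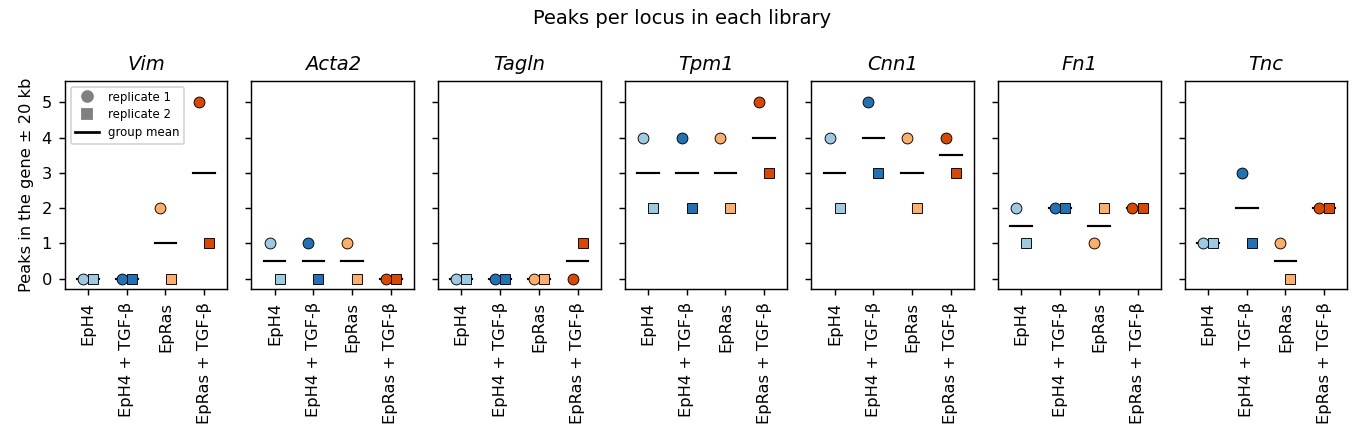
Number of FAIRE peaks (vertical axis) in each gene with 20 kb on each side, for the 4 groups (horizontal axis). Circles are replicate 1, squares replicate 2 and black lines group means of 2 libraries. *Vim* has peaks in EpRas libraries alone, *Tpm1* and *Cnn1* have 2 to 5 peaks in every library, and the lines and treatments overlap at each locus.

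*Vim* (ENSMUSG00000026728.9, chr2:13573927-13582826, plus strand, mm10) encodes vimentin, the main intermediate filament protein of mesenchymal cells. Its locus held 0 peaks in all 4 EpH4 libraries. It held 2 and 0 peaks in untreated EpRas and 5 and 1 in EpRas cells with TGF-β. The mean was 2 ± 2.16 peaks in EpRas and 0 ± 0 in EpH4 libraries (SD, n = 4 each). The lines overlapped because 1 EpRas library had no peak here, and the difference of 2 peaks did not pass the test (two-sided exact permutation test, p = 0.143, adjusted p = 0.785 over all loci). Without that library, untreated EpRas replicate 2, the difference was 2.67 (exact permutation test, p = 0.0286). It was the only EpRas library without a peak, so leaving it out had to separate the lines and adds no support. Without TGF-β-treated EpRas replicate 1 the difference was 1 peak (exact test, p = 0.143). With each list cut to its 10821 strongest peaks, the EpRas libraries held 1, 0, 3 and 0 *Vim* peaks and the EpH4 libraries none. With TGF-β the mean was 1.5 ± 2.38 against 0.5 ± 1 peaks in untreated libraries, and the difference rested on 1 library (exact permutation test, p = 0.714). Without TGF-β-treated EpRas replicate 1, whose list was the longest, it turned to -0.167.

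The 6 *Vim* regions were all called in EpRas libraries alone, and 5 of them in 1 library. The -15.2 kb region, counted from the region's midpoint to the 5′ end of the gene along transcription, was the exception. It was called in untreated EpRas replicate 1 and in both TGF-β-treated EpRas libraries, at score percentiles of 35.0, 78.2 and 2.77. Of all regions, 5.83% were called in 3 or 4 EpRas and no EpH4 library. The percentile is the rank of a peak's score within its own list, from weakest to strongest, since the score has no stated unit. The same region thus ranked high in 1 TGF-β-treated EpRas library and near the bottom in the other. A promoter region was taken as one with its midpoint within 2 kb of a transcription start site (TSS) of the gene. Both promoter regions of *Vim*, at -1.77 kb and -0.304 kb, were called only in TGF-β-treated EpRas replicate 1, at percentiles of 76.0 and 51.0. The regions at -16.6 kb (percentile 63.1) and 23.3 kb (34.3) were called in that library alone too. The region at -19.8 kb was found only in untreated EpRas replicate 1, at percentile 42.5.

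The sequences of the most often called *Vim* region and of the region next to its TSS are shown because both hold the AP1 letters. They are the central 300 bases at chr2:13558616-13558915 and the region chr2:13573507-13573739, both GRCm38.p6 (mm10), plus strand, 5′ to 3′. Capitals mark TGAGTCA or TGACTCA, which are the same AP1 site read on either strand.
Vim -15.2 kb: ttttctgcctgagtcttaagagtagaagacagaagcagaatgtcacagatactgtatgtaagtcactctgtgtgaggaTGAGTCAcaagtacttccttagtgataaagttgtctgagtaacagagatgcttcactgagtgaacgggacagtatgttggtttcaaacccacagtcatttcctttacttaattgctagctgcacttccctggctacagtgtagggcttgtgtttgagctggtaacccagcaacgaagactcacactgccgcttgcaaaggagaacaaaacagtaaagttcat
Vim -0.304 kb: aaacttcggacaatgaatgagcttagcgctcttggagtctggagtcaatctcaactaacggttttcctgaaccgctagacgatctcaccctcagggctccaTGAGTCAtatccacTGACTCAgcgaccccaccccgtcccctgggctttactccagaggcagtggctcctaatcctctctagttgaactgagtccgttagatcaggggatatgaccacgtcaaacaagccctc
The -0.304 kb region held a pair of these matches, with their first bases at positions 102 and 116 of the printed stretch.

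The surroundings of *Vim* also held more peaks in EpRas cells. Within 5 Mb on each side, the locus itself left out, there were 24.1 peaks per 10000 peaks of the list in EpRas and 12.1 in EpH4 libraries. The single values were 13.6, 12.2, 13.4 and 9.24 in EpH4 and 23.2, 18.9, 29.3 and 25.0 in EpRas libraries. These did not overlap (two-sided exact permutation test, p = 0.0286, the smallest this design allows). Chromosome 2 as a whole held 7.76% of peaks in EpRas and 5.97% in EpH4 libraries, again without overlap. Such line differences were not particular to *Vim*. Chromosomes 1 (7.87% in EpRas and 7.38% in EpH4 libraries), 4 (6.92% and 5.71%) and 9 did not overlap either, while chromosome 19 did. Within 5 Mb, the lines overlapped around *Acta2*, *Cnn1*, *Fn1* and *Tnc*, but not around *Tpm1* and *Tagln*. No share over all windows of this size or over all chromosomes is given, so this non-overlap is not read as a result about these loci. Per 1000 peaks of the chromosome, the *Vim* line difference was 1.15 (exact permutation test, p = 0.143). Scaling leaves a count of 0 at 0, so this p could not change, and it says nothing about the wider difference. The part of the wider difference in the *Vim* counts was not tested. With flanks of 50 kb in place of 20 kb, *Vim* held 0 peaks in each EpH4 library and 2, 1, 6 and 2 in the EpRas libraries, so the lines no longer overlapped (exact permutation test, p = 0.0286, adjusted p = 0.418). At that flank, 6.24% of 17752 protein-coding loci showed more peaks in all EpRas than in all EpH4 libraries.

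*Acta2* (ENSMUSG00000035783.9, chr19:34241090-34255590, minus strand), which encodes the α-smooth muscle actin of contractile cells and myofibroblasts, was nearly bare. It held 1 peak in untreated EpH4 replicate 1, 1 in TGF-β-treated EpH4 replicate 1, 1 in untreated EpRas replicate 1 and 0 in the other 5 libraries. Neither the line nor the treatment differed beyond the spread (difference of -0.25 peaks for each, exact permutation test, p = 1 for both). Neither of its 2 regions was at the promoter. One covered part of exon 9, in the 3′ untranslated region, at percentiles of 15.6 and 36.9 in the 2 EpH4 libraries named. The other lay in intron 7 of the gene, at percentile 1.29 in the EpRas library, among the weakest peaks of that list.

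*Tagln* (ENSMUSG00000032085.5, chr9:45929619-45936058, minus strand), which encodes the actin-binding protein transgelin (SM22α), had a single peak in the 8 libraries. It was found in TGF-β-treated EpRas replicate 2 at percentile 38.2. It lay at -19.2 kb, at the promoters of *Sidt2* and A830035O19Rik, so no region of the locus was at *Tagln* itself (line and treatment difference 0.25 peaks each, exact permutation test, p = 1).

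*Tpm1* (ENSMUSG00000032366.15, chr9:67022590-67049406, minus strand) encodes tropomyosin 1, which lies along actin filaments and is made as muscle and non-muscle isoforms from alternative promoters and exons. Its locus held 4 and 2 peaks in untreated EpH4, 4 and 2 in TGF-β-treated EpH4, 4 and 2 in untreated EpRas, and 5 and 3 in EpRas cells with TGF-β. The mean was 3.5 ± 1.29 peaks in EpRas and 3 ± 1.15 in EpH4 libraries, and the same means stood for TGF-β-treated and untreated libraries (difference 0.5 in both contrasts, exact permutation test, p = 0.743). The difference between replicates was larger than that between groups. The TGF-β effect was 1 peak in EpRas and 0 in EpH4 cells (difference of effects, exact permutation test within treatments, 36 assignments, p = 0.722). These 36 assignments allow no p under 0.0556, so this test could not pass the threshold of 0.05 and decides nothing.

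The region at the 5′ end of *Tpm1*, over exon 1 of its long isoforms, was the only one of the 27 called in all 8 libraries, as were 11.4% of all regions. Its percentiles were 36.8 and 14.7 in untreated EpH4, 48.6 and 28.8 in TGF-β-treated EpH4, 36.9 and 29.9 in untreated EpRas, and 66.8 and 58.1 in EpRas cells with TGF-β. Both TGF-β-treated EpRas libraries ranked it higher than any other library did. The treatments still overlapped, because TGF-β-treated EpH4 replicate 2 was below untreated libraries. The mean percentile was 50.6 ± 16.3 with TGF-β and 29.6 ± 10.4 without (SD, n = 4 each), a difference of 21.0 points that missed the threshold (two-sided exact permutation test, p = 0.114, adjusted p = 0.996 over 4259 regions called in all libraries). Between the lines it was 47.9 ± 17.4 in EpRas and 32.2 ± 14.2 in EpH4 libraries (difference 15.7 points, exact permutation test, p = 0.171, adjusted p = 0.555). Over those 4259 regions, the percentile of all EpRas libraries was above that of all EpH4 libraries at 6.72% and below at 1.41%, and with TGF-β it was above that of all untreated libraries at 2.42% and below at 0.446%. Leaving out TGF-β-treated EpH4 replicate 2 gave a difference of 28.2 points (exact permutation test, p = 0.0286). It was the only treated library below any untreated one, so leaving it out had to separate the treatments and adds no support. Without TGF-β-treated EpRas replicate 1 the treatment difference was 15.6 points (p = 0.257) and the line difference 9.45 points (p = 0.371), by the same exact test. Without untreated EpH4 replicate 2 the line difference was 9.91 points (p = 0.371, exact test).

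The part of this region before the first exon is shown as the most steadily called stretch of the 7 loci, at chr9:67049407-67049525, minus strand, 5′ to 3′. None of the letters searched occurred in it, and it holds no capitals.
Tpm1 5′ end: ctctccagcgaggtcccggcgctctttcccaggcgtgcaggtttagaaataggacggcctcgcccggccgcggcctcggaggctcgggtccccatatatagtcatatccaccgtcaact

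A region at 5.43 kb, in intron 3 of Tpm1-202, lay at the internal promoter from which the short *Tpm1* isoforms start. It was called in untreated EpH4 replicate 1 (percentile 36.1), untreated EpRas replicate 1 (10.8) and both TGF-β-treated EpRas libraries (16.4 and 17.6). It was thus found in 1 of 4 EpH4 and 3 of 4 EpRas libraries, mostly among low-ranking peaks. A region at 3.94 kb, which counted as a promoter region because it lay within 2 kb of the same internal TSS, was called in untreated EpH4 replicate 2 alone (53.4).

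Further into the same intron, the 12.5 kb region of *Tpm1* was called in all 4 EpRas libraries and in replicate 1 of both EpH4 groups. Its percentiles were 15.9 and 7.48 in untreated EpRas and 47.6 and 57.2 in EpRas cells with TGF-β. In EpH4 cells they were 24.1 without and 9.57 with TGF-β. Within EpRas cells both treated libraries ranked above both untreated ones, though 2 against 2 libraries allow no p under 0.333, and the region was not tested because it lacked calls in 2 libraries. Its central 300 bases are shown at chr9:67036744-67037043, minus strand, 5′ to 3′, with the TEAD letters in capitals (ACATTCC or GCATTCC on either strand).
Tpm1 12.5 kb: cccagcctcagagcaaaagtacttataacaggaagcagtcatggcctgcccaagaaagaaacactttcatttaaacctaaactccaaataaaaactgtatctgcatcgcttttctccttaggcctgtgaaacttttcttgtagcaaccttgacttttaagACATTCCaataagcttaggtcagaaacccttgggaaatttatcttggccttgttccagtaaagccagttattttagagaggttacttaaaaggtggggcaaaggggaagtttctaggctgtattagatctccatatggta

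The other *Tpm1* regions were less shared. The 24.2 kb region in intron 9 was called in TGF-β-treated EpH4 replicate 1 (58.9), untreated EpRas replicate 1 (49.8) and TGF-β-treated EpRas replicate 1 (47.5). Downstream of the gene, the 42.8 kb region was called in 3 of 4 EpH4 libraries, at 25.9, 47.1 and 30.6, and in 0 EpRas libraries. Of all regions, 1.98% were called in 3 or 4 EpH4 and no EpRas library. A region at 46.1 kb was found in TGF-β-treated EpRas replicate 1 alone (9.82). The surroundings of *Tpm1* within 5 Mb held 64.0 peaks per 10000 in EpRas and 75.3 in EpH4 libraries without overlap (exact permutation test, p = 0.0286), as did those of *Tagln*, with 44.6 and 64.9. Chromosome 9 held 4.49% of peaks in EpRas and 5.50% in EpH4 libraries. Here too, no share over all windows or chromosomes is given. Whether these differences bear on the *Tpm1* counts was not tested. When each list was cut to its 10821 strongest peaks, *Tpm1* held 4, 1, 3 and 2 peaks in EpH4 and 1, 1, 1 and 2 in EpRas libraries, so the line difference turned to -1.25 (exact permutation test, p = 0.257).

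**Figure D2:**
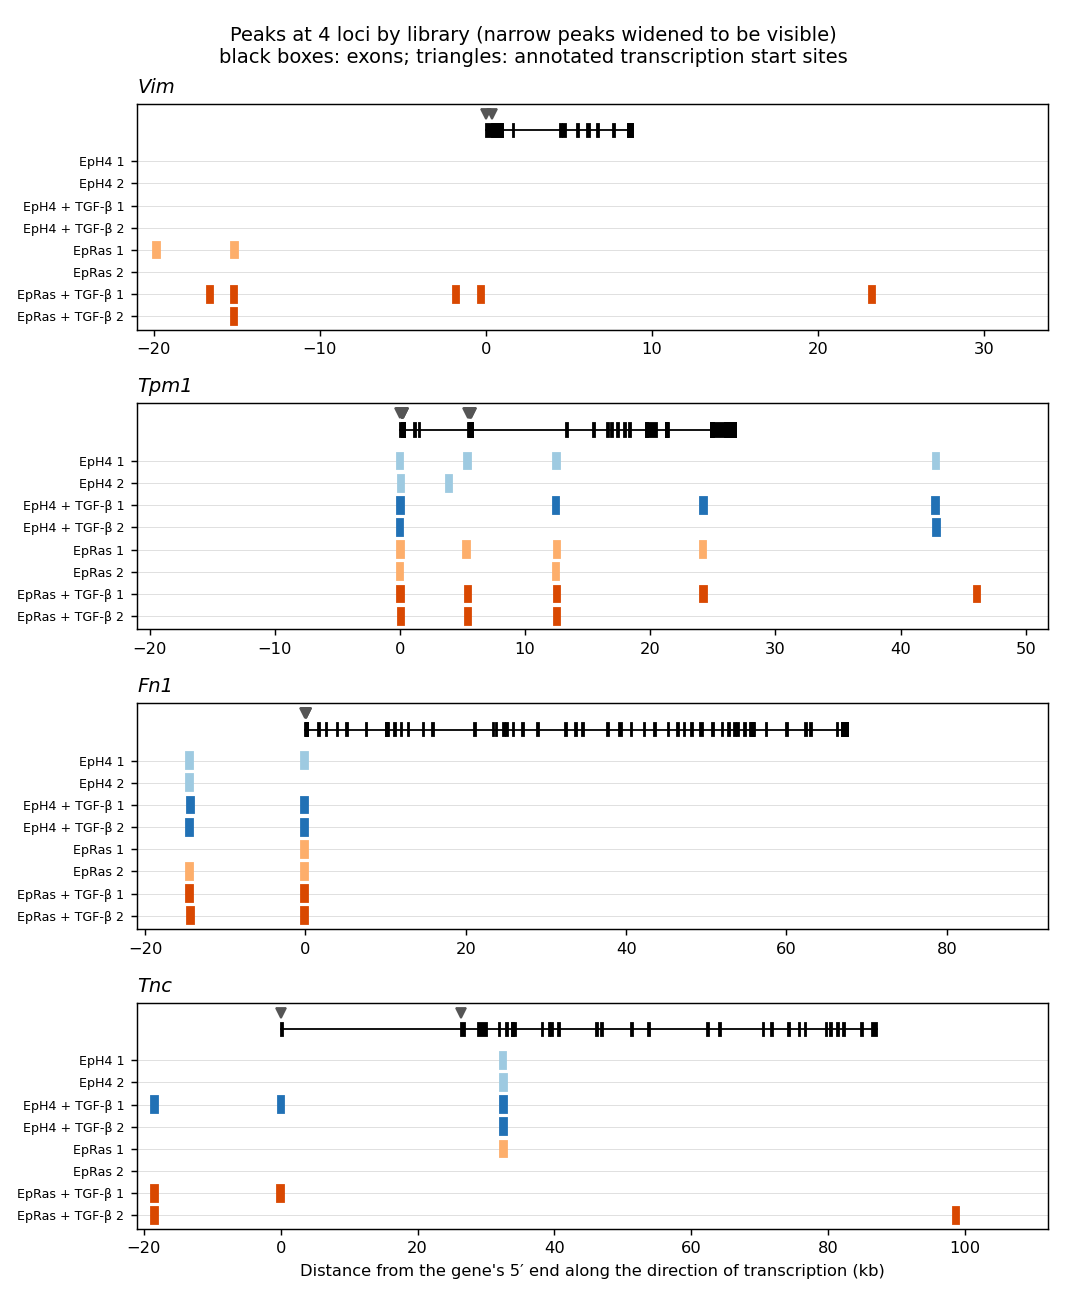
Peaks of the 8 libraries (rows, blue EpH4 and orange EpRas, darker with TGF-β) at *Vim*, *Tpm1*, *Fn1* and *Tnc* by distance from the gene's 5′ end in kb along the direction of transcription. Narrow peaks are widened to be visible, black boxes are exons and triangles are annotated TSSs. The *Tpm1* 5′ end has a peak in every row, the *Vim* EpH4 rows are empty, and the intronic *Tnc* peak is in all EpH4 rows and 1 EpRas row.

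*Cnn1* (ENSMUSG00000001349.5, chr9:22099216-22109630, plus strand) encodes calponin 1, an actin-binding protein of smooth muscle. Its locus held 4 and 2 peaks in untreated EpH4, 5 and 3 in TGF-β-treated EpH4, 4 and 2 in untreated EpRas, and 4 and 3 in EpRas cells with TGF-β. The groups overlapped in both contrasts. The line difference was -0.25 peaks (exact permutation test, p = 1) and the treatment difference 0.75, from 3.75 ± 0.957 peaks with TGF-β against 3 ± 1.15 without (exact permutation test, p = 0.514).

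None of the 5 *Cnn1* regions was at its own promoter or inside the gene. The regions at -13.7 kb and 18.0 kb lay at promoters of neighbours, the first at *Ecsit* and the second at *Elof1* and 6530413G14Rik. The *Elof1* region was called in 7 libraries, at percentiles from 39.4 to 88.8, and the *Ecsit* region in 6, from 37.2 to 76.3. Of the regions between genes, that at -9.01 kb was called in 7 libraries. Its percentiles were 93.6 and 32.4 in untreated EpH4, 64.3 in TGF-β-treated EpH4 replicate 1, 78.5 and 29.0 in untreated EpRas, and 76.7 and 71.1 in EpRas cells with TGF-β. The value of 93.6 was the highest of all 90 peaks, and both untreated second replicates were the lowest here. The -3.02 kb region was called in 6 libraries, at 49.2, 18.4 and 37.2 in EpH4 and 22.1, 44.1 and 46.4 in EpRas cells, and the -3.93 kb region in TGF-β-treated EpH4 replicate 1 alone (40.1).

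The -9.01 kb region is shown because it held the highest percentile, by its central 300 bases at chr9:22090059-22090358, plus strand, with the AP1 letters in capitals.
Cnn1 -9.01 kb: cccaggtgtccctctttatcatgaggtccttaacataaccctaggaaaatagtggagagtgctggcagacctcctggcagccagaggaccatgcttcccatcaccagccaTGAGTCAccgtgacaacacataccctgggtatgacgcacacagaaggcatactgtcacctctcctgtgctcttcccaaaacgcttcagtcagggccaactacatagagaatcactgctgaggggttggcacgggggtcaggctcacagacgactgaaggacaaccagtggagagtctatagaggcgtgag

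*Fn1* (ENSMUSG00000026193.15, chr1:71585520-71653200, minus strand) encodes fibronectin, a matrix glycoprotein that binds integrins and that EMT is known to raise. Its locus held 2 and 1 peaks in untreated EpH4, 2 and 2 in TGF-β-treated EpH4, 1 and 2 in untreated EpRas, and 2 and 2 in EpRas cells with TGF-β. All 4 TGF-β-treated libraries thus held both *Fn1* regions, as did 2 of the 4 untreated ones. The mean was 1.75 ± 0.5 peaks in each line (difference 0, exact permutation test, p = 1) and 2 ± 0 with TGF-β against 1.5 ± 0.577 without (difference 0.5, exact permutation test, p = 0.429).

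The *Fn1* promoter region, at -0.15 kb, was called in 7 libraries, and untreated EpH4 replicate 2 lacked it. It also lay within *Apol7d*, which the annotation places beside the *Fn1* 5′ end, and by the same 2 kb rule was a promoter region of that gene too. Its percentiles were 51.7 in untreated EpH4 replicate 1, 82.8 and 81.3 in TGF-β-treated EpH4, 27.6 and 71.5 in untreated EpRas, and 79.1 and 25.6 in EpRas cells with TGF-β. The replicates of either EpRas group lay far apart, while those of treated EpH4 cells lay close together. The -14.4 kb region was also called in 7 libraries, untreated EpRas replicate 1 being the exception. Its percentiles were 58.7 and 48.1 in untreated EpH4, 8.21 and 78.0 in TGF-β-treated EpH4, 24.0 in untreated EpRas replicate 2, and 21.6 and 0.532 in EpRas cells with TGF-β. The 3 EpRas values were below 3 of the 4 EpH4 values, and the value of 0.532 was the lowest of all 90 peaks.

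Both *Fn1* regions are shown since they make up the whole of its called chromatin. The first is the 300 bases of the promoter region next to the first exon, chr1:71653201-71653500, which leaves out its outermost bases, and the second is the central 300 bases of the upstream region, chr1:71667446-71667745, both minus strand, 5′ to 3′. Capitals mark the AP1 letters, which occurred in the upstream region only.
Fn1 -0.15 kb: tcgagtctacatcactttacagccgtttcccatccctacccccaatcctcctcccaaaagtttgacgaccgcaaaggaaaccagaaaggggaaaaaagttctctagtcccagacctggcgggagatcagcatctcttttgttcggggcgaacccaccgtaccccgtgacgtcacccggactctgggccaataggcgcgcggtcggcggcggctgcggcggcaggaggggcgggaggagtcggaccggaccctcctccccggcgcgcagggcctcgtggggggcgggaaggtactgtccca
Fn1 -14.4 kb: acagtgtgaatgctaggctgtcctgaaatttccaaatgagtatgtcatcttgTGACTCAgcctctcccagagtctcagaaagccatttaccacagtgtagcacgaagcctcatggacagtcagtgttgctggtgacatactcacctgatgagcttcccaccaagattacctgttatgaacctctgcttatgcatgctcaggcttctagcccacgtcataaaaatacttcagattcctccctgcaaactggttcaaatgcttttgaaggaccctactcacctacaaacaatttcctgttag

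*Tnc* (ENSMUSG00000028364.15, chr4:63959785-64047015, minus strand) encodes tenascin-C, a matrix glycoprotein of developing, wounded and tumor tissue. Its locus held 1 and 1 peaks in untreated EpH4, 3 and 1 in TGF-β-treated EpH4, 1 and 0 in untreated EpRas, and 2 and 2 in EpRas cells with TGF-β. The mean was 2 ± 0.816 peaks with TGF-β and 0.75 ± 0.5 without (SD, n = 4 each). This difference of 1.25 peaks was the largest between treatments among the 7 loci, but the groups shared the value of 1 (two-sided exact permutation test, p = 0.114, adjusted p = 1). Without TGF-β-treated EpH4 replicate 2, which had the shortest list, the difference was 1.58 (exact permutation test, p = 0.0286). That was the only treated library with 1 peak, so leaving it out had to separate the treatments and adds no support. The difference was 0.25 at equal list length and with 10 kb flanks (exact permutation test, p = 1 for both). With a stricter score it was 0.5 (p = 0.486 by the same exact test). Between the lines it was -0.25 peaks (exact permutation test, p = 1).

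The *Tnc* regions had different patterns among the libraries. The intronic region at 32.6 kb, in intron 3 of Tnc-203, was called in all 4 EpH4 libraries, at 34.4, 74.1, 60.3 and 22.3, and in untreated EpRas replicate 1, at 42.6. It was not called in the other 3 EpRas libraries. The -18.5 kb region was called in both EpRas libraries with TGF-β, at 78.2 and 66.9, in TGF-β-treated EpH4 replicate 1, at 4.69, and in 0 untreated libraries. It was the 1 region of the 27 called in both treated and no untreated EpRas library, where 7.64% of all regions were. The region at the 5′ end of *Tnc* was called in TGF-β-treated replicate 1 of each line, at 9.78 in EpH4 and 29.8 in EpRas cells. The fourth, at 98.7 kb downstream, was found in TGF-β-treated EpRas replicate 2 alone (10.8). The 32.6 kb, 5′ end and -18.5 kb regions also lay within the annotated gene 8030451A03Rik.

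The intronic and the upstream *Tnc* regions are shown for their unlike patterns, by their central 300 bases at chr4:64014314-64014613 and chr4:64065321-64065620, minus strand, 5′ to 3′. Capitals mark the TEAD letters in the first and the ETS letters in the second (CCGGAAG or CCGGAAA or ACGGAAG or ACGGAAA on either strand).
Tnc 32.6 kb: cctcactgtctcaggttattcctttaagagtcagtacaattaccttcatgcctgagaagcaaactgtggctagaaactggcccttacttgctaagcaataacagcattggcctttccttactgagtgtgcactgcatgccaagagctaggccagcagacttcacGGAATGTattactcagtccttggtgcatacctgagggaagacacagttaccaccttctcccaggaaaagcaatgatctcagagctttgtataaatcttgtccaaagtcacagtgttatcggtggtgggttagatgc
Tnc -18.5 kb: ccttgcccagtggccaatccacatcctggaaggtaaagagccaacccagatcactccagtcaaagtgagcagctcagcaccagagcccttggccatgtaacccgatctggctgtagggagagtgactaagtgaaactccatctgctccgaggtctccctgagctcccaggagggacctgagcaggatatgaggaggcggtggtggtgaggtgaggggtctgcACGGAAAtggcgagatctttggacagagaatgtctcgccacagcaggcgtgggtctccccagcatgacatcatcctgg

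**Figure D3:**
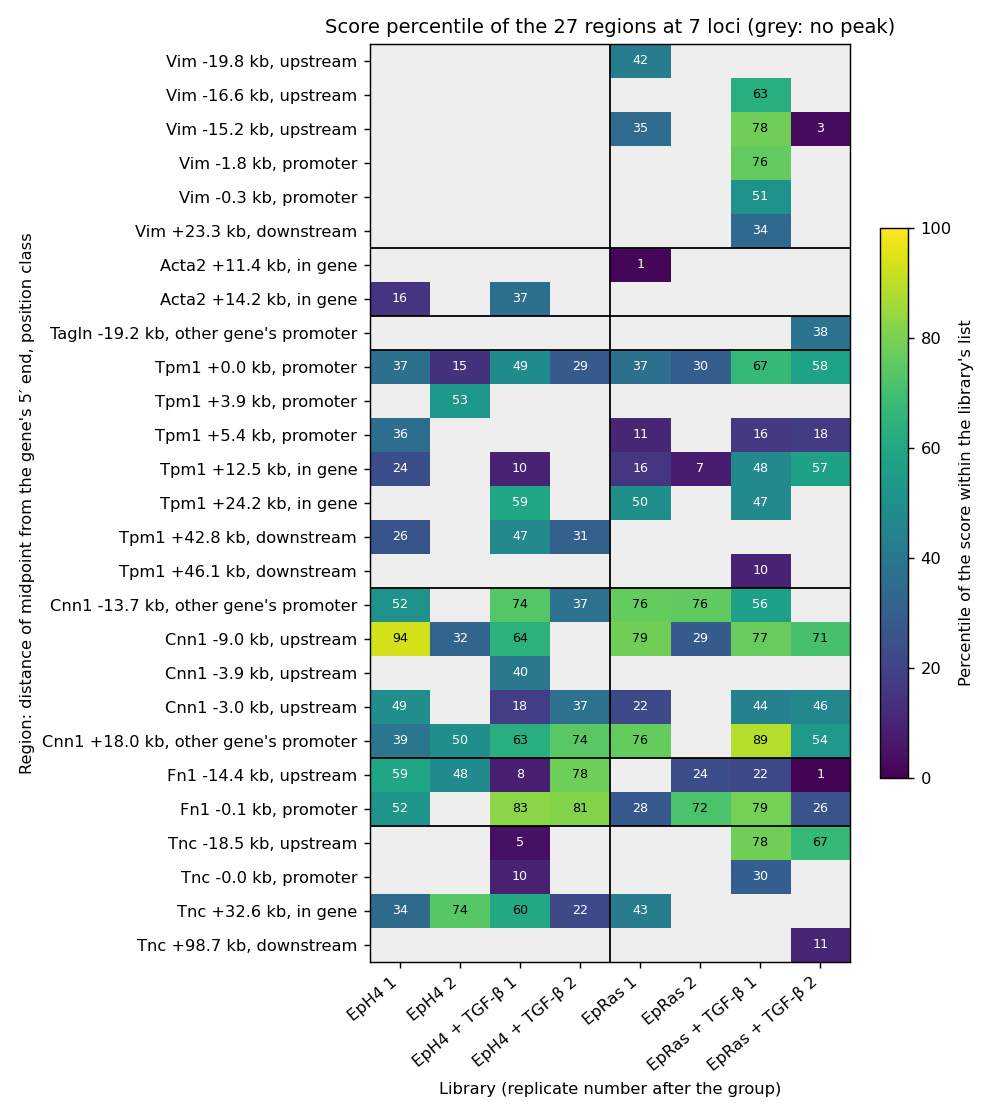
Percentile of the peak's score within its library's list (color, printed in each cell) for the 27 regions (rows, by distance of the midpoint from the gene's 5′ end) in the 8 libraries (columns). Grey cells had no peak. The *Tpm1* 5′ end row is filled throughout, the *Vim* rows are filled in EpRas columns alone, and 11 rows have 1 filled cell.

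No region of the 27 separated the lines or the treatments. Over all regions, 1.98% were called in every EpRas but no EpH4 library, 0.752% in all EpH4 and no EpRas library, 0.32% in all treated and no untreated library, and 0.0188% in all untreated and no treated library. Within the lines, 0 of the 27 were lost with TGF-β in EpRas cells (0.927% of all regions), 0 were gained in EpH4 (3.27%) and 0 were lost in EpH4 cells (1.68%). With shares this small, counts of 0 and 1 among 27 regions are not a result about these loci. The shares by line were near those of the genome. Of the 27 regions, 10 (37.0%) were called in EpRas libraries only against 36.9% of all regions, and 4 (14.8%) in EpH4 libraries only against 14.2%. Another 13 (48.1%) were called in both lines against 48.9%. Regions called in TGF-β-treated libraries only made up 10 (37.0%) against 32.6%, and those in untreated libraries only 3 (11.1%) against 9.98%. Of the 10 EpRas regions, 5 came from TGF-β-treated EpRas replicate 1 alone, which is 18.5% of the 27 against 15.1% of all regions. Regions called in 1 library numbered 11 (40.7%) against 31.6% of all regions. The median percentile over the 90 peaks was 43.3, from 0.532 to 93.6.

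By position, 7 regions were promoter regions of a member, 3 were promoter regions of neighbours alone, 5 lay within a member, 8 in upstream and 4 in downstream flanks. Promoters of members were called in 8 libraries for *Tpm1*, 7 for *Fn1*, 2 for *Tnc*, 1 for *Vim* and 0 for *Acta2*, *Tagln* and *Cnn1*. Of 21951 protein-coding genes, 57.6% had a promoter region in no library and 10.7% in all 8. The 3 genes of smooth muscle were thus among the majority of genes without a called promoter.

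**Figure D4:**
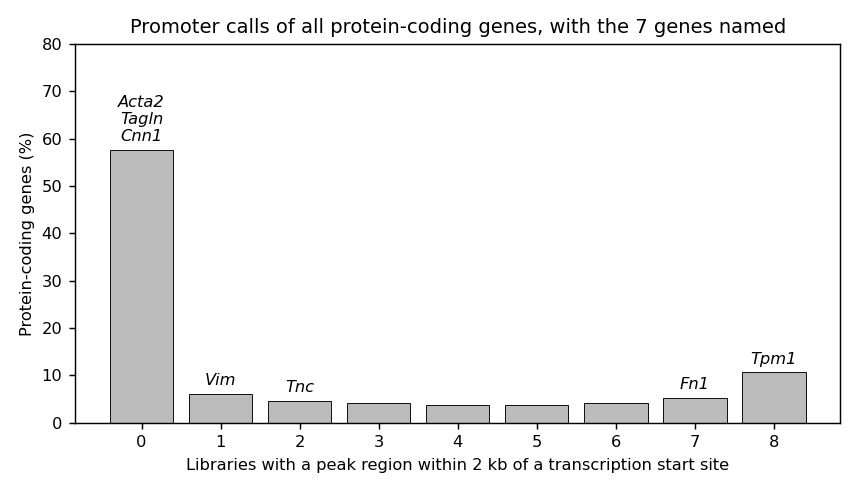
Percentage of protein-coding genes (vertical axis) by the number of libraries with a region within 2 kb of one of their TSSs (horizontal axis), with the 7 genes written above their bar. *Acta2*, *Tagln* and *Cnn1* are at 0 libraries, *Vim* at 1, *Tnc* at 2, *Fn1* at 7 and *Tpm1* at 8.

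Motif letters were counted in 300 bp around the midpoint of each region, on both strands. The AP1 letters, which dimers of Fos and Jun proteins bind, were in 9 of the 27 regions (33.3%) and in 34.7% of all regions. These were 3 regions of *Vim*, 3 of *Tpm1*, 2 of *Cnn1* and the upstream region of *Fn1*, and none of *Acta2*, *Tagln* or *Tnc*. The ETS letters were in 4 regions (12.3% of all) and the TEAD letters in 4 (13.5% of all). Of the ETS regions, 3 were at promoters, those of *Ecsit* and *Elof1* and the internal *Tpm1* promoter, and the other was the -18.5 kb region of *Tnc*. In the *Elof1* region, a pair of ETS matches shared 1 base. The TEAD regions were at -19.8 kb of *Vim*, at the 5′ end (outside the printed stretch) and 12.5 kb of *Tpm1* and at 32.6 kb of *Tnc*. The RUNX letters TGTGGTT were in 0 of the 27 and in 11.5% of all regions, the Smad letters GTCTAGAC in 0 and 0.312%, and the CArG box of serum response factor in 0 and 1.75%. The CArG box was searched as CC, 6 bases of A or T, and GG, without mismatches. The promoters of *Acta2*, *Tagln* and *Cnn1* held no region, so they did not enter this count. A match is a description of the sequence and does not show binding.

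Other genes of the same kinds were counted in the same way. Of 21 further cytoskeletal genes, 19 had a peak in their locus, 8 had a promoter region in no library and 6 in all 8. At 0 of them were all EpRas libraries above all EpH4 libraries, and at 1 below. This was *Zyx*, the focal adhesion protein zyxin, with 2, 2, 4 and 3 peaks in EpH4 libraries and 1 in each EpRas library (exact permutation test, p = 0.0286). Of 24 further matrix genes, 20 had a peak, 15 had a promoter region in no library and 1, *Ccn2*, in all 8. Here 1 had more peaks in all EpRas libraries, *Spp1*, which encodes the secreted phosphoprotein osteopontin. It held 0 peaks in each EpH4 library and 1, 2, 2 and 2 in EpRas libraries (exact permutation test, p = 0.0286). One gene of 21 or 24 is not read as a result, since 4.27% of all loci lay above and 0.552% below. Neither gene passed adjustment over all loci, where the smallest value was 0.593. For TGF-β, 0 of these 21 and 24 genes separated the treatments in either direction. The median line difference was 0.5 peaks over all 21 cytoskeletal and 0.375 over all 24 matrix genes, those without a peak included. Over all loci with a peak it was 0.25. The median treatment differences over these sets were 0, 0.25 and 0.25 peaks. The sets are unlike, since a gene without a peak has a difference of 0, so the medians are not compared.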

How the data were processed

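FAIRE-seq was analysed in 8 libraries, 2 per group, grouped and numbered as their labels state. The authors aligned reads to mm10 by Bowtie2 and ran MACS2 (2.0.9) on each library, per the labels and the methods. The deposited lists gave each peak a position and a score whose meaning, like the control sample and the treatment of duplicate reads, is not given in the sources used here. The score was therefore used as a rank within a list, except for the alternative with a stricter score. That alternative kept peaks at or above the median score of all lists pooled, which compares raw scores between lists. List medians ran from 13.34 in TGF-β-treated EpH4 replicate 2 to 18.14 in TGF-β-treated EpRas replicate 1.

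Peaks overlapping by at least 1 bp were merged over libraries and assigned to genes by GENCODE coordinates (GRCm38.p6). Peaks per locus were compared between lines and between treatments by exact permutation tests, two-sided, with Benjamini-Hochberg adjustment over all 15756 protein-coding loci with a peak. Within 1 line, 2 against 2 libraries allow no p under 0.333, so no such test was made. The test of the difference of effects permuted line labels within treatments. It allows no p under 0.0556, so it could not pass at 0.05. Percentiles were tested only for regions called in all libraries. Numbers of called regions and motif letters were counted without a test. The locus test was run on simulated data with a large change placed at peak-rich loci. It therefore does not show what the test would find at peak-poor loci or for small differences. The merging was checked against bedtools 2.31.1. Python 3.11.15, numpy 2.4.6, pandas 2.3.3, scipy 1.17.1 and pysam 0.24.0 were used.

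The members and gene lists were chosen with earlier results of these data known. Regions were named if at a promoter of a member, if they separated lines or treatments, or treatments within a line, or if they had the highest mean percentile among the most often called regions of a locus outside promoters. The remaining regions, and the counts within 5 Mb, were given after their values were seen. Replicates were described by the study as biological. Replicate numbers were not treated as pairs, because deviations of same-numbered libraries correlated at -0.0647 to 0.175 over loci, with 3 of 6 group pairs below 0. Alternatives were lists of equal length (10821 peaks), a stricter score, flanks of 10 and 50 kb, scaling to the peaks of the library or chromosome, other motif windows, a replicate block, and each library left out.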

Additional observations from a re-analysis of the deposited data

How the results depend on the processing

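Adjusted values were computed for the main setting and, for *Vim*, with 50 kb flanks (adjusted p = 0.418), and alternatives are otherwise given by unadjusted exact p. At an unadjusted p, *Vim* separated the lines with 50 kb flanks (2.75 peaks, exact permutation test, p = 0.0286) and without untreated EpRas replicate 2 (2.67, same p). *Tnc* and the *Tpm1* promoter percentile separated the treatments without TGF-β-treated EpH4 replicate 2. Each library left out here was the only cause of the overlap, so these leave-out separations were fixed in advance. Line differences changed sign for *Tpm1* at equal list length (-1.25) and per 10000 peaks of the library (-0.358), and for *Cnn1* with a stricter score (1.5) and 50 kb flanks (0.25). Treatment differences changed sign for *Tpm1* per 10000 peaks of the library (-0.205) and per 1000 peaks of the chromosome (-0.285), and for *Fn1* at equal list length (-0.25). Differences of effects changed sign for *Acta2* at equal list length (0.5), *Tpm1* per chromosome (-0.00375), *Cnn1* (0.5) and *Tnc* (-0.5) with 10 kb flanks. Leaving out 1 library gave line differences of 1 to 2.67 for *Vim*, -0.75 to 0.25 for *Cnn1* and -0.5 to 0.25 for *Tnc*, a treatment difference of -0.167 to 1.5 for *Vim*, and differences of effects of -1.5 to 0.5 for *Cnn1* and -0.5 to 1.5 for *Tnc*. The number of member regions was 15 with a stricter score, 16 with 10 kb and 49 with 50 kb flanks. Loci without overlap between lines numbered 1 with 50 kb flanks and 0 to 1 with 1 library left out, and between treatments 0 to 1. With 1 library left out, 0 to 1 regions separated the lines in each direction, or TGF-β from untreated libraries, and 50 kb flanks gave 1 region of EpH4 alone. Regions gained with TGF-β in EpRas numbered 4 with a stricter score, 0 with 10 kb flanks and 1 to 7 with 1 library left out. Those lost numbered 1 at equal list length and 0 to 3 with 1 library left out. In EpH4 cells, 2 were gained with a stricter score, 0 to 4 gained and 0 to 1 lost with 1 library left out. Regions called in EpRas alone numbered 6 at equal list length, 3 with 10 kb flanks and 5 to 13 with 1 library left out, and those in EpH4 alone 2 with a stricter score and 9 with 50 kb flanks. Apart from the line share with 50 kb flanks given above, shares over all loci or regions were not computed for these alternatives. These counts are therefore not a result about the loci. The RUNX letters were in 1 region at 500 bp, against 15.1% of all regions. The cause of these changes was not tested beyond fewer peaks or libraries entering. With the replicate number as a block, the *Vim* line difference of 2 had p = 0.167 and the *Tnc* treatment difference of 1.25 had p = 0.111 (exact permutation tests within replicate numbers), and no call changed. The lack of read counts limits each comparison to calls at unknown depth.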

Other observations

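The first replicate held more member peaks than the second in each group, with 12 and 6 in untreated EpH4, 15 and 8 in TGF-β-treated EpH4, 13 and 6 in untreated EpRas, and 18 and 12 in EpRas cells with TGF-β. The untreated EpH4 pair did so although the list of its first replicate was the shorter one, with 12462 against 13092 peaks. *Tpm1* and *Cnn1*, 2 of the 7 loci, had more peaks in replicate 1 in all 4 groups, as did 507 of 15756 protein-coding loci (3.22%). The opposite order in all 4 groups was found at 2 loci (0.0127%). These are raw peak numbers, and replicate 1 had the longer list in every group but untreated EpH4. With each list cut to its 10821 strongest peaks, neither locus kept this order in all 4 groups. In the same group order, *Tpm1* then held 4 and 1, 3 and 2, 1 and 1, and 1 and 2 peaks. *Cnn1* held 4 and 2, 4 and 3, 3 and 2, and 2 and 3. The part of list length in the order over all loci was not tested.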
